A study of Caenorhabditis elegans with 51 samples.

Results

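To find what separates reduced insulin signaling from complex I deficiency, the transcripts of *daf-2* and *nuo-6* worms, both long-lived mutants, were compared directly with each other, without wild-type worms as the reference. The comparison used every library that the labels assign to these strains, 6 of *daf-2* and 6 of *nuo-6* worms, which are 12 of the 39 libraries of their experiment and of the 51 libraries of the series. The *daf-2* worms carried *daf-2(e1370)*, an allele of the insulin-IGF1 receptor gene, and the *nuo-6* worms carried *nuo-6(qm200)*, an allele of a gene for a subunit of mitochondrial complex I. All worms were *C. elegans* on NGM plates with OP50 bacteria at 20 °C, RNA was taken from whole pre-fertile young adults, and each library came from a separate biological replicate. Both alleles were present in every cell of the worm throughout development, and 1 strain stands for each allele. Wild-type N2 worms of the same experiment (6 libraries) are given only as a level for orientation.

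In worms, insulin-like peptides bind the DAF-2 receptor, which acts through the kinases AGE-1, PDK-1 and AKT to keep the FOXO transcription factor DAF-16 out of the nucleus. When the receptor is impaired DAF-16 enters the nucleus and induces genes of stress resistance, metabolism and innate immunity. Complex I passes electrons from NADH into the mitochondrial electron transport chain, and its impairment slows respiration and is known to engage mitochondrial stress responses, among them the mitochondrial unfolded protein response.

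The values are normalized CPM, the authors' TMM-scaled read counts per fixed library total. A difference is the mean of log2(value + 0.5) in *daf-2* worms minus that in *nuo-6* worms, so positive values are higher in *daf-2* worms, and for genes with little expression the added 0.5 shrinks it. Genes were tested with limma in 1 fit of the 39 libraries and called when their adjusted p (Benjamini-Hochberg, over all genes) was below 0.05. The 12 libraries held 21434437 to 27473787 reads. Not all libraries resembled their own group (see the plot of principal components). On the first component, which took 46.2% of the variance, *daf-2* replicates 5 and 6 stood at -8.05 and 15.4 while the other *daf-2* libraries stood at 44.1 to 71.7, and *nuo-6* replicate 2 stood at -7.93 while the other *nuo-6* libraries stood between -68.4 and -31.2. On the second component, with 18.4% of the variance, *daf-2* replicates 5 and 6 stood at 67.5 and 61.2 and the other 10 libraries between -28.3 and 6.88. Replicate 5 of *daf-2* correlated less with the other *daf-2* libraries (mean r = 0.908 across genes) than with the *nuo-6* libraries (mean r = 0.914). Yolk protein transcripts also varied within each strain. Counts of called genes are therefore also given without these 3 libraries where this changes the picture, which was decided once these libraries had been seen.

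**Figure D1:**
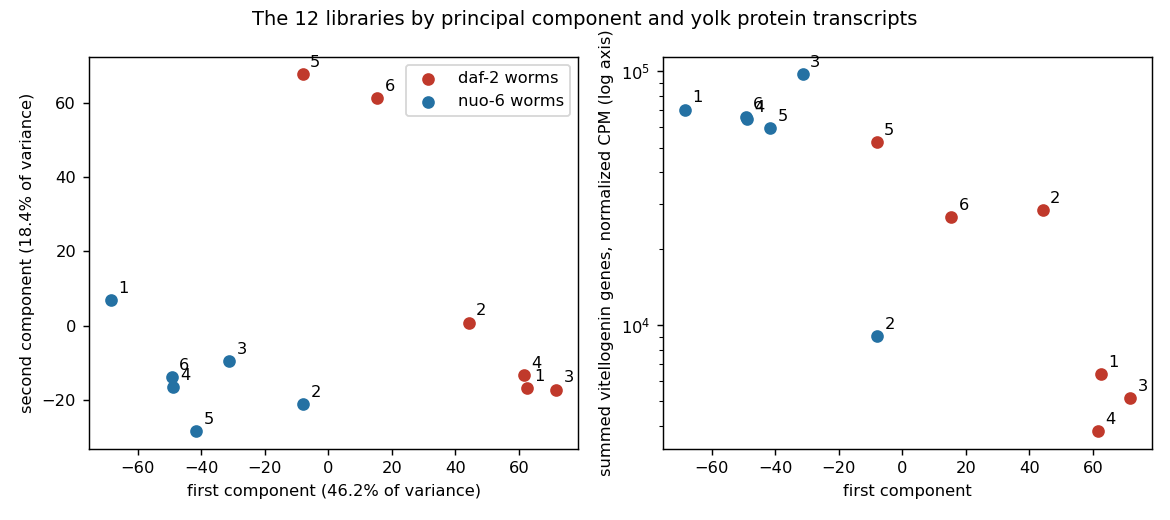
Left, the 12 libraries on the first 2 principal components of log2(value + 0.5). Right, the summed normalized CPM of the vitellogenin genes (log axis) against the first component. Red points are *daf-2* worms, blue points are *nuo-6* worms and the numbers are replicates. *daf-2* replicates 5 and 6 and *nuo-6* replicate 2 lie between the main clouds of their strains on the first component, *daf-2* replicates 5 and 6 lie far above all other libraries on the second, and *nuo-6* replicate 2 has a yolk sum of 9006 while the other *nuo-6* libraries have at least 59658.

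Of 14033 genes tested, 1864 were higher (13.3%) and 2587 were lower (18.4%) in *daf-2* worms than in *nuo-6* worms. The difference was at least 1 on the log2 scale for 588 of the higher and 770 of the lower genes. In 518 genes (3.69%) every *daf-2* library lay above every *nuo-6* library, and in 871 genes (6.21%) every *daf-2* library lay below. The median difference over all genes was -0.00. Most of the called genes had a wild-type mean between the mutants, 958 of the 1864 higher genes (51.4%) and 1510 of the 2587 lower genes (58.4%). The wild-type mean was below both mutants for 619 (33.2%) of the higher and 790 (30.5%) of the lower genes, and above both for 287 in each direction. Without *daf-2* replicates 5 and 6 and *nuo-6* replicate 2, 1567 of the 1864 higher genes and 2326 of the 2587 lower genes were still called, among 2733 higher and 3110 lower. The main fit pools the spread of all strains of the experiment. The 12 libraries fitted alone, with the spread of *daf-2* and *nuo-6* libraries only, gave 1043 higher (7.43%) and 1677 lower genes (12%).

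The mutated genes themselves were measured first. The *nuo-6* transcript measured 75.7 to 115 (median 106) in *daf-2* worms, against 127 to 230 (median 200) in *nuo-6* worms and 112 to 154 in wild-type worms. It was lower in all 6 *daf-2* libraries than in any *nuo-6* library (difference -0.91 ± 0.14 SE, adjusted p = 2.7e-06). The *daf-2* transcript measured 147 to 317 (median 209) in *daf-2* worms, against 107 to 169 (median 142) in *nuo-6* worms. It was higher in *daf-2* worms (0.55, adjusted p = 0.0056), but with overlapping groups and not in the fit of the 12 libraries alone (adjusted p = 0.06). Neither mutant thus had a low level of its own mutated transcript, so these levels do not test the labels. The *daf-16* transcript differed by 0.15 (adjusted p = 0.46). Transcripts that mark intestine (*elt-2*, *ges-1*), body wall muscle (*myo-3*, *unc-54*), pharynx (*myo-2*), hypodermis (*dpy-7*, *col-19*) and neurons (*rab-3*, *unc-119*, *snb-1*) were present in all 12 libraries. Among these, *col-19* and *unc-119* were called lower in *daf-2* worms, and both calls held on leaving out each library in turn. In whole-worm RNA, fewer cells of a type and less RNA per cell cannot be told apart.

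The largest increases in *daf-2* worms were of genes close to silent in *nuo-6* worms, among them genes for proteases, C-type lectins, and a saposin-like protein. *cpr-2*, a cathepsin B-like protease gene, measured 293 to 5826 (median 1782) in *daf-2* worms, against 0.0431 to 1.70 (median 0.629) in *nuo-6* worms and at most 0.0795 in wild-type worms (difference 10.50 ± 0.41 SE, adjusted p = 1.6e-20). The aspartyl protease gene *asp-18* measured 173 to 1826 (median 482) in *daf-2* worms, against 0 to 0.138 in *nuo-6* worms, where 4 libraries were at 0 (9.75 ± 0.34, adjusted p = 4.2e-22). Groups that do not overlap were required for a gene to be named among the largest differences, so the separation itself is no further result. The wide margin of both genes follows from choosing the largest differences and is no further result either. The *daf-2* libraries differed widely among themselves.

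The other 8 genes with the largest increases had the same form, high and variable in *daf-2* worms and at or near 0 in *nuo-6* and wild-type worms. *clec-18* (9.11) and *clec-128* (8.33) encode C-type lectins, carbohydrate-binding proteins that are often part of the intestinal response to microbes. *clec-18* measured 25.7 to 1508 (median 479) in *daf-2* worms, against 0 to 0.138 in *nuo-6* worms. *spp-9* (7.80), for a saposin-like protein, measured 38.3 to 329 (median 129) in *daf-2* worms, against 0 to 0.141 in *nuo-6* worms. *scl-19* (8.50), for an SCP-like extracellular protein, Y39G8B.7 (10.06), F35E8.7 (8.15), F35E8.6 (7.75) and H39E23.3 (7.69) complete the list. With *nuo-6* libraries this close to 0, these differences depend on the added 0.5 and rank the genes only on this scale. Of the 10 genes, 8 had their highest value in *daf-2* replicate 2 and 9 had their lowest *daf-2* value in replicate 6, while *cpr-2* was highest in replicate 5 and H39E23.3 highest, at 695, in replicate 6.

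Several of these genes were neighbours. On chromosome V, *asp-18* (V:18730174-18731679, WBcel235, minus strand) and *scl-19* (V:18731991-18732772, plus strand) lay head to head. F35E8.6 (V:15912148-15913056) and F35E8.7 (V:15914014-15915142) stood next to F35E8.1 (V:15904192-15905630), which had 1.54 to 10.3 in *daf-2* worms and 0 reads in all *nuo-6* libraries. *clec-128* (II:3569430-3571027) stood next to *clec-127* (II:3568117-3569218), which had 0.731 to 21.8 in *daf-2* worms and 0 reads in all *nuo-6* libraries. In all, 3 genes with a mean of at least 1 in *daf-2* worms and reads in all their libraries had none in any *nuo-6* library, F35E8.1, *clec-127* and the lysozyme gene *ilys-6*. *ilys-6* measured 5.71 to 10.1 in *daf-2* worms, at least 56-fold higher than a floor of 3 reads per library in *nuo-6* worms, and was 0 in wild-type worms too.

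The largest decreases in *daf-2* worms were of genes with low levels in *daf-2* worms that every *nuo-6* library expressed. *dod-24*, a gene downstream of *daf-16* for a CUB-like domain protein, measured 0.997 to 3.63 (median 1.61) in *daf-2* worms, against 67.6 to 348 (median 208) in *nuo-6* worms and 30.7 to 82.7 in wild-type worms (difference -6.36 ± 0.33 SE, adjusted p = 3.2e-17). *dod-22*, of the same kind, measured 0.162 to 0.633 (median 0.204) in *daf-2* worms, against 27.3 to 91.0 (median 55.7) in *nuo-6* worms and 3.07 to 11.8 in wild-type worms (-6.08 ± 0.29, adjusted p = 5.8e-18). The separation of the groups was again required by the choice of genes, and the wide gap follows from choosing the largest differences. The wild-type medians of 42.3 and 4.99 lay in between.

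*dod-24* and *dod-22* share a stretch of chromosome IV with C32H11.4 (-5.16, adjusted p = 2.0e-10), which was also among the 10 largest decreases. Between the start of C32H11.4 and the end of *dod-22* (IV:12921264-12967392) the table holds 9 genes, of which 6 were lower in *daf-2* worms, each with every *daf-2* library below every *nuo-6* library, and 3 were not called. The further lower genes were F55G11.8 (-2.09), F55G11.7 (-1.99) and *dod-21* (-1.46), and those not called were C32H11.5, C32H11.6 and the transporter gene *abt-3*. Over all genes 18.4% were lower, and 6.21% had every *daf-2* library below every *nuo-6* library. This stretch was looked at after C32H11.4, *dod-24* and *dod-22* had been seen among the largest decreases. Their calls and separation were thus fixed by the choice of the stretch, and only the other genes add to it.

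The remaining large decreases fell into different patterns when wild-type worms were set beside them. The lysozyme gene *ilys-5* measured 0.953 to 12.2 (median 1.71) in *daf-2* worms, against 19.9 to 184 (median 106) in *nuo-6* worms, and 363 to 752 in wild-type worms (-4.92, adjusted p = 1.7e-11), so that both mutants were below wild-type worms. The lectin gene *clec-10* measured 0 to 0.823 in *daf-2* worms, against 12.8 to 47.4 in *nuo-6* worms and 22.6 to 44.8 in wild-type worms (-5.05, adjusted p = 1.1e-14), so that *nuo-6* and wild-type worms overlapped. F22B3.7 (-4.67) and ZK177.9 (-4.64) were close to 0 in *daf-2* and wild-type worms. ZK177.9 had no reads in any *daf-2* library, against 4.99 to 21.5 in *nuo-6* worms, at least 107-fold lower in *daf-2* worms by the floor of 3 reads per library, and at most 0.154 in wild-type worms. B0205.13 (-5.55), Y58A7A.5 (-5.13) and C06B8.2 (-4.55) complete the 10, and Y58A7A.5, ZK177.9 and C06B8.2 overlap a gene on the other strand, whose reads may be mixed with theirs. Another 3 genes had no reads in any *daf-2* library, F45D11.1 (II:1021505-1023528), *math-34* (II:1028972-1033665) and *math-10* (II:1871542-1873348), with means of 2.63, 2.01 and 2.02 in *nuo-6* worms.

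**Figure D2:**
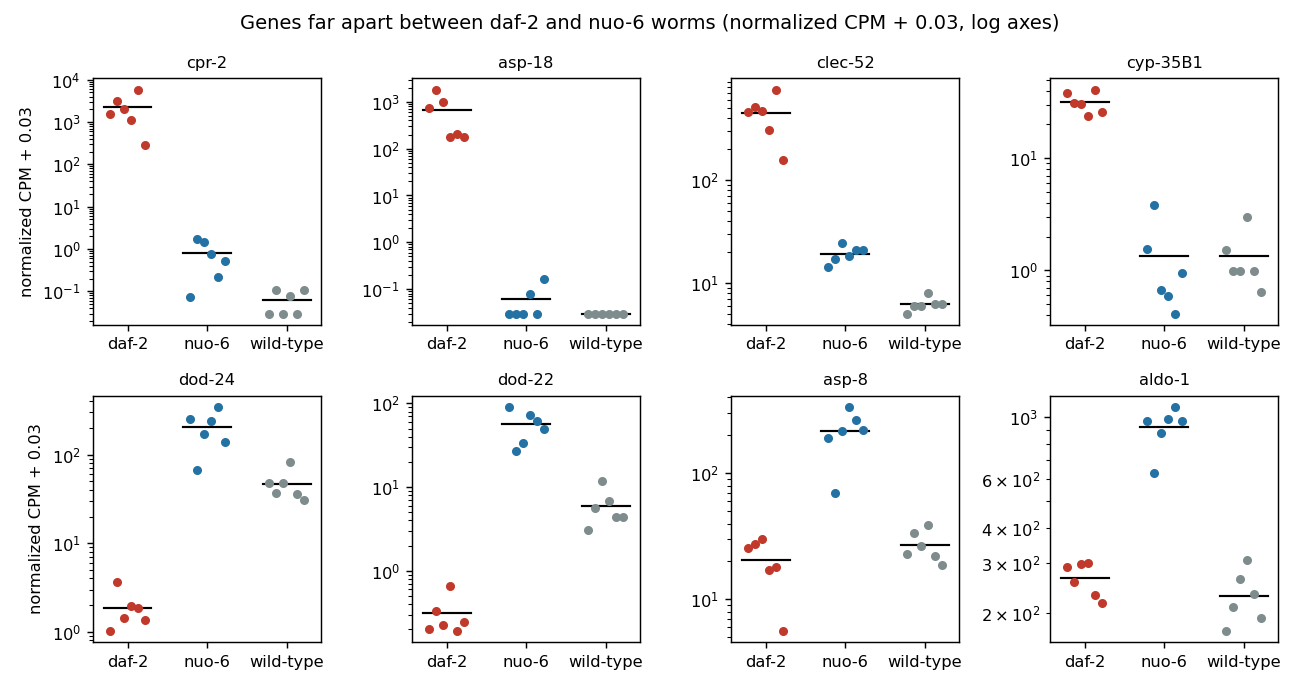
Normalized CPM plus 0.03 (log axes) of 8 genes in each library of *daf-2* (red), *nuo-6* (blue) and wild-type worms (grey), points are libraries and lines are means. The upper genes lie higher in all 6 *daf-2* libraries than in any *nuo-6* library, and the lower genes lie lower in all 6. This separation was required for *cpr-2*, *asp-18*, *dod-24* and *dod-22* to be named among the largest differences.

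Beyond these extremes, gene groups were counted by how many members were called. The share of all genes called was 13.3% higher and 18.4% lower. Transcripts of the mitochondrial respiratory chain made up the most uniform group. Of 32 nuclear genes for complex I subunits, 31 were lower in *daf-2* worms and none was higher, with a median difference of -0.82, beside -0.00 over all genes. In 26 of the 32 every *daf-2* library lay below every *nuo-6* library, a pattern that 6.21% of all genes showed. Summed over the 32 genes, complex I transcripts measured 3184 to 4605 normalized CPM in *daf-2* worms, against 5531 to 8537 in *nuo-6* worms and 4449 to 5826 in wild-type worms. The wild-type libraries thus lay between the mutants and overlapped with both.

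The complex I genes with the largest differences were D2030.4, which RefSeq names *ndub-7*, with 41.7 to 59.2 in *daf-2* worms, against 86.5 to 138 in *nuo-6* worms (-1.22 ± 0.12 SE, adjusted p = 7.4e-10), T20H4.5 (*ndus-8*, -1.06) and F37C12.3 (*ndab-2*, -1.04). *nuo-6* itself is 1 of the 32, and its difference (-0.91) was close to the median of the group. *gas-1*, for a core subunit, was lower (-1.0), whereas *nduf-2.2*, its paralogue, was the only member not called, with 75.3 ± 6.66 in *daf-2* worms and 69.3 ± 9.03 in *nuo-6* worms (SD, n = 6 each, difference 0.12, limma adjusted p = 0.27).

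The decrease was not limited to complex I. Of 30 nuclear genes for complexes II to V, 25 were lower and none higher (median -0.64, 14 with groups apart). *isp-1*, for the Rieske iron-sulfur protein of complex III, measured 321 to 354 (median 334) in *daf-2* worms, against 480 to 695 (median 642) in *nuo-6* worms (-0.89 ± 0.10, adjusted p = 1.6e-08), and *asg-2*, for a subunit of ATP synthase, was lower by a similar amount (-0.95). The 5 members not called were *asb-1*, *asg-1*, *cyc-2.2*, *hpo-18* and *ucr-2.3*. Summed, the group measured 10033 to 13572 in *daf-2* worms, against 15151 to 22537 in *nuo-6* worms and 11936 to 18010 in wild-type worms, whose lower libraries lay within the *daf-2* range.

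Among the mitochondrial groups, genes of the mitochondrial genome had the largest median difference. Of the 12 protein genes measured, 10 were lower and none higher (median -1.35), but in only 3 were the groups apart, *ctc-1*, *ctc-2* and *nduo-5*. *ctc-1*, for a core subunit of cytochrome c oxidase, measured 1483 to 4092 (median 2360) in *daf-2* worms, against 5397 to 11889 (median 10646) in *nuo-6* worms and 4475 to 6164 in wild-type worms (-1.89 ± 0.21, adjusted p = 7.6e-09). *ctc-2* (-1.77) and the complex I subunit gene *nduo-5* (-1.61) followed, and *ndfl-4* (-0.70) and *nduo-2* (-0.03) were not called. Summed, these transcripts measured 5012 to 12893 in *daf-2* worms, against 13074 to 30770 in *nuo-6* worms and 11793 to 15950 in wild-type worms. The lowest *nuo-6* library was replicate 2, just above the highest *daf-2* library, and the other *nuo-6* libraries measured at least 20922.

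Genes of the ribosomes were divided by compartment. Of 66 genes for the mitochondrial ribosome, 60 were lower in *daf-2* worms and none higher (median -0.58, 32 with groups apart). Summed, they measured 1944 to 2248 in *daf-2* worms, against 2828 to 3897 in *nuo-6* worms and 2760 to 3278 in wild-type worms. In this sum the wild-type libraries overlapped with *nuo-6* worms and lay above all *daf-2* libraries. *mrps-14* measured 30.8 to 39.1 in *daf-2* worms, against 77.3 to 128 in *nuo-6* worms and 46.1 to 60.5 in wild-type worms (-1.46 ± 0.11, adjusted p = 2.9e-13), and *mrpl-14* (-1.10) and *mrps-5* (-0.96) followed. Of 82 genes for the cytosolic ribosome, by contrast, 81 were not called (median -0.06), and *rpl-24.2* was higher by 0.29, a call lost on leaving out any of 7 single libraries. Summed cytosolic ribosome transcripts measured 67196 to 104758 in *daf-2* worms, against 82685 to 100910 in *nuo-6* worms. The counts for the respiratory chain and the mitochondrial ribosome changed little without *daf-2* replicates 5 and 6 and *nuo-6* replicate 2, at 31 of 32, 25 of 30, 11 of 12 and 58 of 66 lower.

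**Figure D3:**
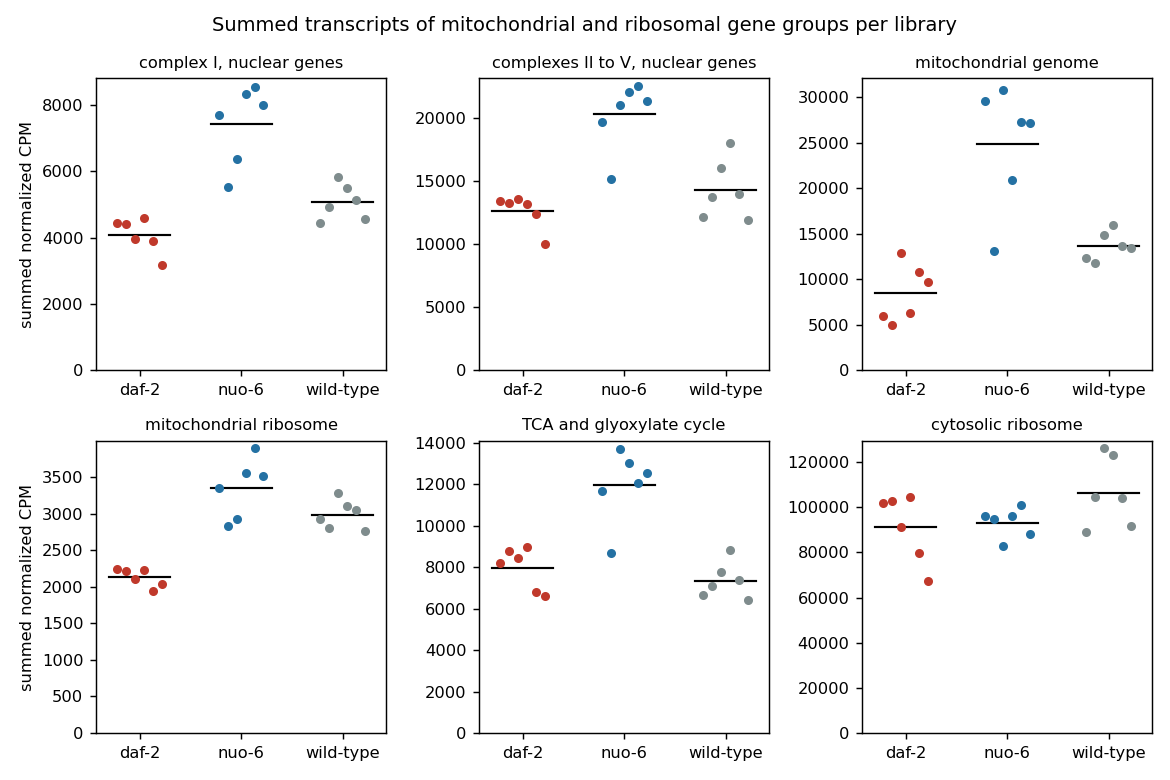
Summed normalized CPM of 6 gene groups in each library of *daf-2* (red), *nuo-6* (blue) and wild-type worms (grey), points are libraries and lines are means. For complex I, complexes II to V, the mitochondrial genome and the mitochondrial ribosome all *daf-2* libraries lie below all *nuo-6* libraries, while the sums of the cytosolic ribosome overlap.

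Genes of the mitochondrial unfolded protein response were mostly lower in *daf-2* worms, 9 of 14, with 1 higher (median -0.67). Among them were the chaperone gene *hsp-6*, with 550 to 1221 (median 719) in *daf-2* worms, against 882 to 2081 (median 1370) in *nuo-6* worms and 663 to 1066 in wild-type worms (-0.86 ± 0.16, adjusted p = 8.9e-05), and *atfs-1*, for the transcription factor that drives this response, with 47.1 to 75.0 (median 66.7) in *daf-2* worms, against 70.5 to 217 (median 165) in *nuo-6* worms (-1.10, adjusted p = 2.0e-05). In both genes the groups overlapped through *nuo-6* replicate 2 or *daf-2* replicate 4. *haf-1*, for a mitochondrial peptide exporter, measured 2.23 to 4.75 in *daf-2* worms, against 8.51 to 12.2 in *nuo-6* worms (-1.51 ± 0.15, adjusted p = 1.3e-09), with groups apart. The import genes *timm-23* (-1.22) and E04A4.5 (*timm-17B.1* in RefSeq, -0.98), the co-chaperone gene *dnj-10* (-1.12) and the protease genes *clpp-1* (-0.76), *spg-7* (-0.59, not in the 12 libraries alone) and C34B2.6 (*lonp-1* in RefSeq, -0.41) were lower as well. The homeobox gene *dve-1* was higher (0.55, adjusted p = 0.024, lost without *nuo-6* replicate 1, *nuo-6* replicate 4 or *daf-2* replicate 3), and the chaperone gene *hsp-60* (-0.34), *ubl-5* (-0.08), and the chromatin genes *met-2* (-0.05) and *lin-65* (0.13) were not called. Unlike *hsp-6*, *hsp-60* had a lower mean in *nuo-6* worms (556, range 340 to 729) than in wild-type worms (782, range 612 to 906). Summed, the group measured 1569 to 2414 in *daf-2* worms, against 2152 to 3710 in *nuo-6* worms and 2180 to 2869 in wild-type worms.

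Genes of carbon metabolism were mostly lower too. Of 17 genes of the TCA and glyoxylate cycles 12 were lower and none higher (median -0.48), led by *dld-1*, for dihydrolipoamide dehydrogenase (-0.86, adjusted p = 1.8e-09), and *mdh-2*, for mitochondrial malate dehydrogenase (-0.86, adjusted p = 0.00018). Of 23 genes of glycolysis and gluconeogenesis 14 were lower and 1 higher (median -0.42, 8 lower in the 12 libraries alone). The aldolase gene *aldo-1* measured 216 to 301 (median 275) in *daf-2* worms, against 629 to 1085 (median 966) in *nuo-6* worms and 172 to 308 in wild-type worms (-1.78 ± 0.15, adjusted p = 9.7e-12). The lactate dehydrogenase gene *ldh-1* measured 43.4 to 105 in *daf-2* worms, against 140 to 290 in *nuo-6* worms and 61.9 to 94.4 in wild-type worms (-1.57, adjusted p = 1.4e-07). In both genes *daf-2* worms overlapped with wild-type worms and *nuo-6* worms stood above. The phosphoglycerate mutase gene *ipgm-1* was lower by the same pattern (-0.87), and the single higher gene was *pfk-1.2*, for a phosphofructokinase (0.60, adjusted p = 0.019, lost without *nuo-6* replicate 1 or *daf-2* replicate 1). Of 9 genes of propionate breakdown the carboxylase genes *pccb-1* (-0.42) and *pcca-1* (-0.36) were lower and the others were not called (median -0.20), and 4 were lower without the 3 libraries that stood apart.

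The DAF-16 target genes were compared next. The study took the 8 genes from a published compilation of DAF-16 targets and measured them further in its mitochondrial mutants. It had also named all but *acs-17* among genes upregulated in all its mitochondrial mutants, *nuo-6* included, in these RNA sequencing data. By quantitative PCR it reported all 8, *acs-17* included, as upregulated in these mutants, and likened this to its sequencing data. The *nuo-6* libraries thus bore on these genes being named, so the genes are not used as independent evidence of a direction. Of the 8, 5 were higher in *daf-2* worms, 1 was lower and 2 were not called (median 0.77), and in none did the groups separate fully. Summed, they measured 2623 to 4087 (median 2871) in *daf-2* worms, against 3060 to 5162 (median 3687) in *nuo-6* worms and 874 to 1256 in wild-type worms. The abundant genes *icl-1*, *gpd-2* and *sodh-1*, with lower means in *daf-2* worms, made up most of this sum. *dod-3*, a gene downstream of *daf-16*, measured 4.55 to 103 (median 42.0) in *daf-2* worms, against 4.18 to 14.7 (median 7.46) in *nuo-6* worms and 0.746 to 5.62 in wild-type worms (2.13 ± 0.50, adjusted p = 0.001). The metallothionein gene *mtl-1* measured 87.1 to 593 (median 155) in *daf-2* worms, against 16.1 to 178 (median 42.9) in *nuo-6* worms (2.12, adjusted p = 0.0055). The ferritin gene *ftn-1* (1.66, adjusted p = 0.001) and the acyl-CoA synthetase gene *acs-17* (0.91, adjusted p = 0.00031) were higher. For *dod-3* only *daf-2* replicate 6 fell within the *nuo-6* range, and for *mtl-1* it was *nuo-6* replicate 2 that reached the *daf-2* range.

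*sod-3*, for a mitochondrial superoxide dismutase, showed the smallest increase. It measured 43.7 to 97.9 (median 60.8) in *daf-2* worms, against 28.8 to 56.2 (median 41.1) in *nuo-6* worms and 3.08 to 4.69 in wild-type worms (0.63 ± 0.23, adjusted p = 0.033). The call was lost without *nuo-6* replicate 1 or 2, or *daf-2* replicate 2 or 6 (highest adjusted p = 0.0926), and without the 3 libraries that stood apart (adjusted p = 0.26). The sorbitol dehydrogenase gene *sodh-1* measured 213 to 709 in *daf-2* worms and 232 to 921 in *nuo-6* worms (-0.48, adjusted p = 0.45), and *icl-1*, for the glyoxylate cycle enzyme, measured 809 to 2355 in *daf-2* worms and 1324 to 3381 in *nuo-6* worms (-0.43, adjusted p = 0.19). *gpd-2*, for a glyceraldehyde-3-phosphate dehydrogenase, was lower in *daf-2* worms, with 570 to 752, against 676 to 1133 in *nuo-6* worms and 337 to 481 in wild-type worms (-0.67, adjusted p = 0.00049). *gpd-2* has a near-identical copy, *gpd-3* (-0.47), so the split of reads between them is uncertain. In 6 of the 8 genes, all but *dod-3* and *mtl-1*, every library of either mutant exceeded every wild-type library. The study had noted these genes, *acs-17* apart, as upregulated in *nuo-6* worms in these data, so for that strain this is no test.

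**Figure D4:**
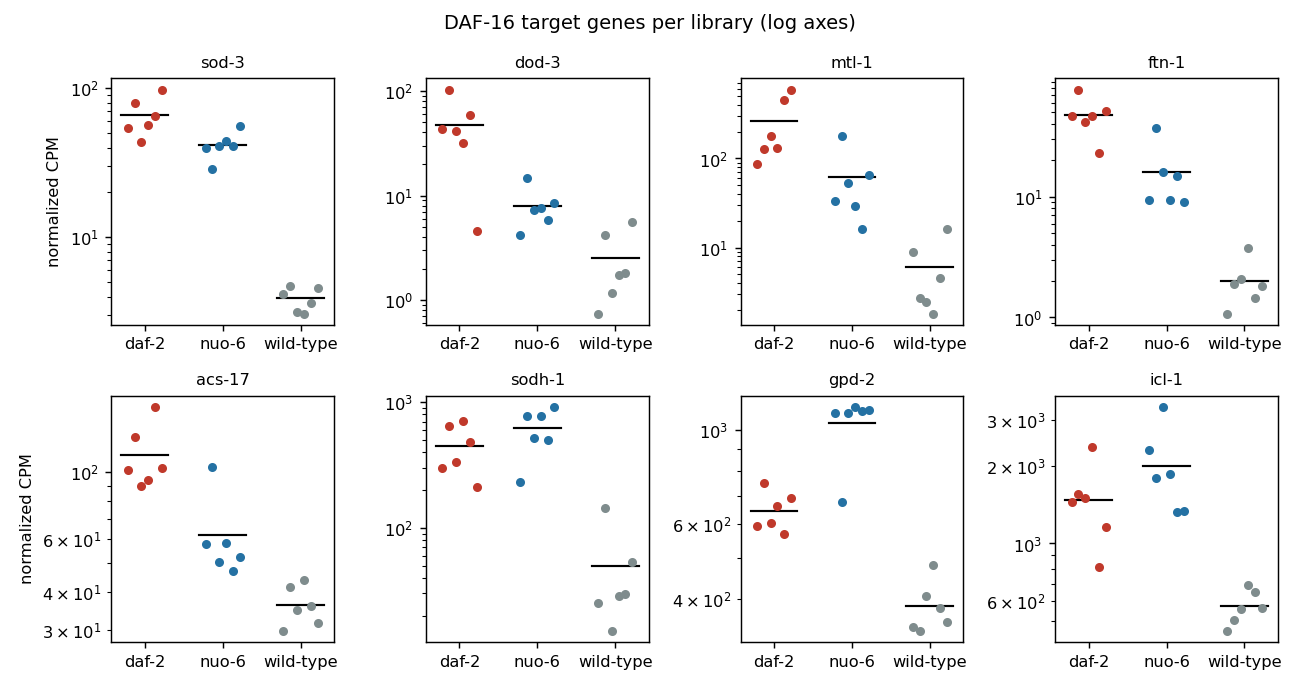
Normalized CPM (log axes) of 8 DAF-16 target genes in each library of *daf-2* (red), *nuo-6* (blue) and wild-type worms (grey), points are libraries and lines are means. The mutants overlap in every gene, with *daf-2* means above *nuo-6* means for *sod-3*, *dod-3*, *mtl-1*, *ftn-1* and *acs-17* and below for *sodh-1*, *gpd-2* and *icl-1*.

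The ligands and kinases of the insulin pathway differed too. Of 18 insulin-like peptide genes measured, 11 were higher in *daf-2* worms and 1 was lower (median 0.78), but 7 and 0 in the 12 libraries alone. *ins-11* measured 1.54 to 7.69 (median 5.52) in *daf-2* worms, against 0.172 to 1.28 (median 0.214) in *nuo-6* worms (2.47 ± 0.33, adjusted p = 3.7e-07), *ins-24* measured 6.91 to 14.4 in *daf-2* worms, against 1.68 to 4.82 in *nuo-6* worms (1.78), and *ins-5* measured 3.86 to 13.4 in *daf-2* worms, against 1.41 to 3.66 in *nuo-6* worms (1.49). All 3 had groups apart, and their wild-type medians of 0.345, 1.49 and 1.04 were nearer to *nuo-6* worms. *daf-28*, for an agonist of the receptor, was lower (-0.53, adjusted p = 0.049, lost on leaving out any of 6 libraries). Of 11 genes of the pathway itself, 5 were higher and 1 lower (median 0.24). The kinase genes *akt-1* (0.82, adjusted p = 7.5e-06), *akt-2* (0.93) and *pdk-1* (0.76), *ist-1*, for an insulin receptor substrate homologue (0.67), and *daf-2* were higher, and the kinase gene *sgk-1* was lower (-0.43, adjusted p = 0.048, lost on leaving out any of 7 libraries).

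Antioxidant genes moved in both directions. Of 18, 5 were higher and 7 lower in *daf-2* worms (median -0.31). The catalase genes *ctl-3* (1.77, adjusted p = 3.9e-10), *ctl-2* (1.25, adjusted p = 4.4e-05) and *ctl-1* (1.22, adjusted p = 3.3e-05) were higher. *ctl-3* measured 21.8 to 29.3 in *daf-2* worms, against 5.45 to 11.6 in *nuo-6* worms, and the most abundant, *ctl-2*, measured 138 to 229 in *daf-2* worms, against 48.0 to 218 in *nuo-6* worms, where replicate 2 was the highest and the others were at most 100. The catalase genes are highly similar neighbours on chromosome II, so that the split of reads among them is uncertain. Genes of the mitochondrial thioredoxin system were lower, *trxr-2* with 7.81 to 13.7 in *daf-2* worms, against 22.6 to 32.6 in *nuo-6* worms and 10.2 to 14.2 in wild-type worms (-1.24, adjusted p = 2.2e-10), *trx-2* (-0.94) and *prdx-3* (-0.80). The methionine sulfoxide reductase gene *msra-1* was lower still (-1.55, adjusted p = 0.00019).

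Proteases, lectins, and antimicrobial genes moved in both directions within each family. Of 21 cathepsin B and aspartyl protease genes, 7 were higher and 4 lower. Beside *cpr-2* and *asp-18*, *asp-12* was higher, with 61.4 to 117 in *daf-2* worms, against 3.45 to 11.5 in *nuo-6* worms and 15.9 to 42.6 in wild-type worms (3.82, adjusted p = 2.5e-12). *asp-8* was lower, with 5.62 to 29.9 in *daf-2* worms, against 69.3 to 337 in *nuo-6* worms and 18.8 to 39.1 in wild-type worms (-3.38, adjusted p = 1.4e-09), as were *cpr-5* (-2.30) and *asp-10* (-2.16). Of 106 C-type lectin genes 31 were higher and 33 lower (median -0.03), with *clec-52* (4.35) among the higher, at 157 to 758 in *daf-2* worms, against 14.3 to 24.8 in *nuo-6* worms and 5.06 to 8.02 in wild-type worms, and *clec-265* (-3.40) and *clec-4* (-3.32) among the lower. Of 52 antimicrobial genes (lysozymes, saposin-like proteins, antimicrobial peptides and relatives) 15 were higher and 7 lower (median 0.31). *spp-21* was higher (6.15) and the peptide genes *nlp-26* (-1.62) and *nlp-25* (-1.29, not in the 12 libraries alone) were lower.

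In each of 3 detoxification families more members were lower than higher, as over all genes (18.4% lower and 13.3% higher). Cytochrome P450 genes were near these shares (21% lower and 17.7% higher). Their order turned in the 12 libraries alone (9 higher and 8 lower) and in edgeR (14 higher and 12 lower). Of 59 UDP-glucuronosyltransferase genes 25 were lower and 7 higher (median -0.46), with *ugt-19* (-2.90) and *ugt-61* (-2.63) lower and *ugt-41* higher (1.85). Of 34 glutathione S-transferase genes 15 were lower and 4 higher (median -0.41), but 7 and 1 in the 12 libraries alone, and 2 were higher without *daf-2* replicate 2. *gst-24* measured 1.90 to 9.06 in *daf-2* worms, against 11.2 to 29.2 in *nuo-6* worms and 2.28 to 12 in wild-type worms (-2.11, adjusted p = 0.0002). Of 62 cytochrome P450 genes 11 were higher and 13 lower (median -0.15), and 21 were lower without the 3 libraries that stood apart. *cyp-35B1*, a known DAF-16-dependent gene, measured 23.8 to 40.9 (median 30.9) in *daf-2* worms, against 0.383 to 3.82 (median 0.778) in *nuo-6* worms and 0.616 to 2.98 in wild-type worms (4.37, adjusted p = 1.6e-09), while *cyp-14A4* was lower (-3.97, adjusted p = 5.0e-09). *gst-44*, *cyp-13A8* and *cyp-13A12* were lower too (-2.72, -2.73 and -2.62), yet in each the highest *daf-2* library and the highest *nuo-6* library were replicate 5 of their strain, with *gst-44* at 63.4 in *daf-2* worms and 114 in *nuo-6* worms, and none of the 3 was called in the 12 libraries alone, nor *gst-44* and *cyp-13A8* in edgeR.

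Among lipid genes the lysosomal lipase genes *lipl-1* and *lipl-2* were higher in *daf-2* worms. *lipl-1* measured 36.6 to 432 (median 157) in *daf-2* worms, against 5.08 to 75.9 (median 33.2) in *nuo-6* worms (2.42, adjusted p = 0.00084), and *lipl-2* measured 61.3 to 388 in *daf-2* worms, against 9.87 to 44.2 in *nuo-6* worms (2.09, adjusted p = 0.00016). Of 17 genes of fat mobilization 4 were higher and 5 lower (median 0.08), the lower ones including the lipid-binding protein genes *lbp-5* (-1.11) and *lbp-3* (-0.88). Of 7 fatty acid desaturase genes *fat-5* was higher, with 95.0 to 191 in *daf-2* worms, against 12.3 to 108 in *nuo-6* worms and 7.55 to 37.1 in wild-type worms (1.68, adjusted p = 0.0021), and *fat-1* (-0.62, adjusted p = 1.3e-05) and *fat-4* (-0.44, adjusted p = 0.0086, not in the 12 libraries alone) were lower. *fat-2* (-0.08), *fat-3* (-0.35), *fat-6* (-0.32) and *fat-7* (-1.0, adjusted p = 0.11) were not called, and *fat-7* was below wild-type worms in both mutants, with 2.59 to 8.81 in *daf-2* worms, 3.26 to 19.9 in *nuo-6* worms and 59.7 to 111 in wild-type worms.

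**Figure D5:**
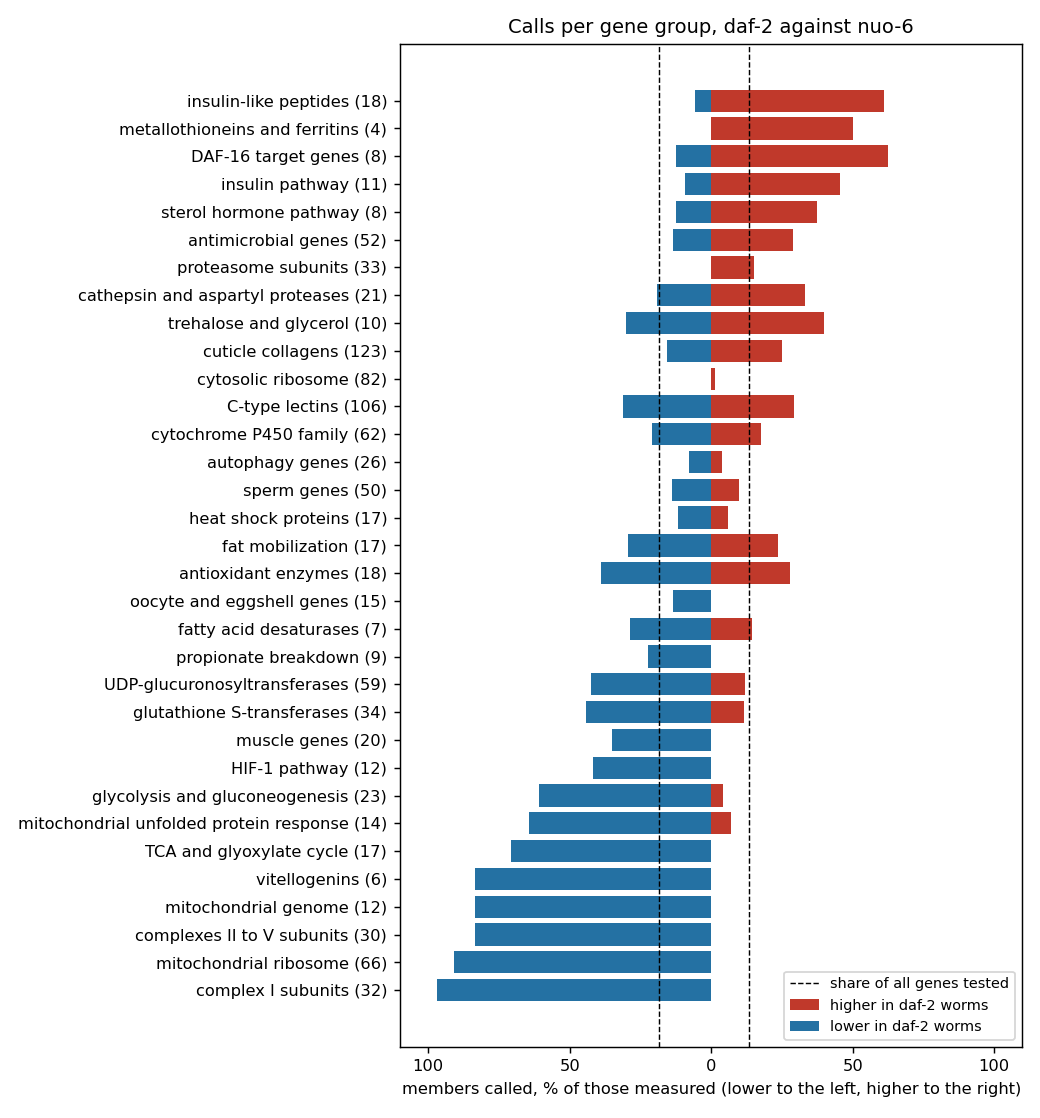
Share of the measured members of 33 gene groups called higher (red, to the right) or lower (blue, to the left) in *daf-2* than in *nuo-6* worms, in percent, with the number measured in brackets and dashed lines at the shares of all genes, 13.3% and 18.4%. The respiratory chain and mitochondrial ribosome groups reach 83.3% to 96.9% lower, and the cytosolic ribosome group is close to 0 in both directions.

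Yolk and cuticle genes differed between the strains but also within them. Of the 6 vitellogenin genes, for yolk proteins made in the adult intestine, 5 were lower in *daf-2* worms (median -2.06), *vit-5* (-2.73), *vit-4* (-2.21), *vit-1* (-2.20), *vit-2* (-1.91) and *vit-6* (-1.84), and *vit-3* was not called (-0.95, adjusted p = 0.24). Summed, they measured 3821 to 6409 in *daf-2* replicates 1, 3 and 4 and 26539 to 52539 in *daf-2* replicates 2, 5 and 6, against 9006 in *nuo-6* replicate 2, 59658 to 97075 in the other *nuo-6* libraries and 24959 to 44581 in wild-type worms. In this sum the strains overlapped only through *nuo-6* replicate 2, while for *vit-2* and *vit-3* alone other libraries overlapped too. *vit-2* measured 21309 in *daf-2* replicate 5 and 19364 in *nuo-6* replicate 5. In the 12 libraries alone 2 of the 6 were lower, and without *daf-2* replicates 5 and 6 and *nuo-6* replicate 2 all 6 were (median -3.09).

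Of 123 cuticle collagen genes 31 were higher and 19 lower (median 0.79), without groups apart in any. These counts moved with single libraries. The number higher was 11 without *nuo-6* replicate 1, 13 without *daf-2* replicate 1 or 4, 15 without *daf-2* replicate 3, 17 and 18 without *nuo-6* replicates 4 and 6, 73 without *daf-2* replicate 5 and 81 without the 3 libraries that stood apart, and the 12 libraries alone gave 4 higher and 10 lower, and edgeR gave 56 higher and 19 lower. *col-143* was lower, with 64.6 to 857 (median 296) in *daf-2* worms, against 668 to 2298 (median 2055) in *nuo-6* worms (-2.83, adjusted p = 6.6e-06), and *col-36* was higher, with 5.60 to 20.7 in *daf-2* worms, against 0.0431 to 26.9 in *nuo-6* worms, where replicate 2 was highest (2.76, adjusted p = 0.0005, but edgeR adjusted p = 0.282). Oocyte and eggshell transcripts moved with the yolk genes, with sums of 2308 to 2929 in *daf-2* replicates 1, 3 and 4 and 5117 to 7148 in *daf-2* replicates 2, 5 and 6, against 2315 in *nuo-6* replicate 2 and 4094 to 7132 in the other *nuo-6* libraries. Of the 15 oocyte and eggshell genes *perm-4* (-1.51) and *perm-2* (-1.34, not in the 12 libraries alone) were lower and none was higher (median -0.05), and 4 were lower without the 3 libraries that stood apart. Of 50 sperm genes 5 were higher and 7 lower (10% and 14%, beside 13.3% and 18.4% of all genes, median 0.03). Without *nuo-6* replicate 2, 2 were higher and 13 lower. Without the 3 libraries that stood apart, 1 was higher and 14 lower, and in the 12 libraries alone 2 were higher and 6 lower. The number of sperm genes higher was also 2 without *nuo-6* replicate 1, 1 without *daf-2* replicate 1, 3 without *daf-2* replicate 4 and 8 without *nuo-6* replicate 4. Young adults gain yolk and eggshell transcripts as they mature, and the part of developmental stage in the differences between these libraries was not tested.

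Among stress genes, the small heat shock protein gene *sip-1* separated the strains, with 1567 to 2432 (median 1834) in *daf-2* worms, against 454 to 974 (median 545) in *nuo-6* worms and 230 to 826 in wild-type worms (1.65 ± 0.24, adjusted p = 1.4e-06). Of the 17 heat shock protein genes it was the single higher one and 2 were lower (median -0.32), and the number lower was 7 without *daf-2* replicate 4, 4 without *nuo-6* replicate 6 or *daf-2* replicate 6, 1 without *nuo-6* replicate 3 or *daf-2* replicate 2 or 3, 4 without the 3 libraries that stood apart and 0 in the 12 libraries alone. The inducible gene *hsp-16.2* measured 229 ± 398 in *daf-2* worms and 337 ± 369 in *nuo-6* worms (SD, n = 6 each, limma adjusted p = 0.14), a spread as large as the mean. Of 12 genes of the HIF-1 hypoxia pathway 5 were lower and none higher (median -0.39), with F22B5.4 at 2.99 to 5.44 in *daf-2* worms, against 10.5 to 21.6 in *nuo-6* worms and 2.75 to 4.85 in wild-type worms (-1.70, adjusted p = 1.4e-10), and *nhr-57*, for a nuclear receptor, also lower (-0.93). In the 12 libraries alone 2 of the 12 were lower, and without *nuo-6* replicate 6 or *daf-2* replicate 6, 3 were. Without the 3 libraries that stood apart 3 were lower and 2 higher. The *hif-1* transcript itself differed by 0.10 (adjusted p = 0.59).

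Calls were spread over the nuclear chromosomes. The share of genes higher in *daf-2* worms was 11.4% (chromosome III) to 15.1% (V), and the share lower was 15.3% (I) to 21.8% (V). Within 1 Mb of *daf-2*, 11.9% of 252 genes were higher and 19.8% lower, and within 1 Mb of *nuo-6*, 9.83% of 407 genes were higher and 14.5% lower, beside 13.3% and 18.4% of all genes. Of the 14 genes measured from the mitochondrial genome, ribosomal RNA genes included, 12 were lower and none higher.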

How the data were processed

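The authors sequenced each library on an Illumina NextSeq 500, aligned the reads to WBcel235 with STAR 2.5.2b, counted them per gene with STAR GeneCounts, and normalized them with edgeR 3.20.1. The table used gives a signal deposited by the authors as filtered CPM. Its values are whole multiples of 1 read for 99.97% to 100% of genes per library (tolerance 0.05 read), and TMM-normalized CPM computed again from these reads equalled the deposited signal. The 12 libraries held 21434437 to 27473787 reads (median 24311440), of which the 10 largest genes took 4.83% to 12.6%. Positions come from the WBcel235 annotation for 13955 of 14033 genes.

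*daf-2* minus *nuo-6* was tested by limma's two-sided moderated test (version 3.58.1, R 4.3.3, mean trend in eBayes) on log2(value + 0.5), in a fit of all 39 libraries without covariates. The spread behind the p-values was pooled per gene over the libraries of all strains of the experiment. These include wild-type worms and worms labelled *clk-1*, *isp-1*, *sod-1*, *ctl-1* and *prdx-2*. It is thus not the spread of the *daf-2* and *nuo-6* libraries alone, which only the fit of the 12 libraries uses. The alternatives were other pseudocounts, a filter on low values, stricter thresholds, the 12 libraries alone, median of ratios scaling, a replicate block, leaving out each library, and count tests on the recovered reads. edgeR 4.0.16 called 2114 genes higher and 2564 lower on those reads, and DESeq2 1.42.0 was run on the 12 libraries. The fit was tested on simulated data, where the share of false calls came out above the nominal rate, so calls near the threshold may be too many.

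Named genes had to be called, average at least 1 over the 12 libraries and have groups that do not overlap, and of these the 10 most increased and 10 most decreased were taken. Also named were the 8 DAF-16 target genes, *daf-2*, *nuo-6* and *daf-16*, tissue markers, and from each of 33 gene lists up to 3 called members in each direction. *gas-1*, *nduf-2.2*, *prdx-3*, *ist-1*, *gpd-3*, *hif-1*, *hsp-16.2*, *mtl-2*, *ftn-2*, the uncalled genes of short lists, genes at 0 in one strain and the genes of the chromosome IV stretch are outside this rule and were chosen after their values were seen. Members and lists were chosen with earlier results of these data known. The other deposited tables, of *sod-2* worms, were not used here.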

Additional observations from a re-analysis of the deposited data

Results flagged for a closer look

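In 59 of 396 groups of 6 libraries, for the genes named and for the summed gene groups, the lowest or highest library lay farther from its nearest neighbour than Dixon's 95% critical value allows (on the scale of log2(value + 0.5)). Chance alone flags about 1 in 20 such groups, and here 14.9% were. Values are normalized CPM, and none of the differences within a strain was explained.

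Replicate 6 of *daf-2* worms was the lowest of its group for *asg-2* (73.4), *asp-8* (5.62), *cpr-5* (28.4), *ctl-2* (138), *elt-2* (10.4), *gas-1* (120), *trxr-2* (7.81) and the sums of complexes II to V (10033), propionate breakdown (2468) and antimicrobial genes (3252). It was the highest for H39E23.3 (695), *ctl-3* (29.3), *dod-21* (0.0429) and *snb-1* (255). Replicate 5 of *daf-2* worms was the highest for *cyp-13A12* (62.3), *cyp-13A8* (47.3), *fat-4* (386), *lipl-2* (388) and the sum of cytochrome P450 genes (1594), and the lowest for *mrps-14* (30.8). Replicate 4 of *daf-2* worms was the highest for *dod-22* (0.633), *fat-5* (191) and the sum of glutathione S-transferases (1682), and the lowest for the sum of UDP-glucuronosyltransferases (1086).

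Replicate 2 of *nuo-6* worms stood apart most often. It was the lowest of its group for all 6 vitellogenin genes, *vit-1* (264), *vit-2* (4309), *vit-3* (70.9), *vit-4* (110), *vit-5* (887) and *vit-6* (3364), and their sum (9006), for the cuticle genes *col-143* (668) and *col-19* (1971), for the protease gene *asp-8* (69.3), and for the metabolic and mitochondrial genes *dld-1* (461), *gas-1* (242), *gpd-2* (676), *hpo-18* (94.0), *isp-1* (480), *mdh-2* (619) and *mrpl-14* (63.5). The sums of complexes II to V (15151), of the TCA and glyoxylate cycles (8711) and of sperm genes (1033) were lowest there too. It was the highest for C32H11.5 (7.29), H39E23.3 (0.718), *acs-17* (104), *ctl-1* (9.29), *ins-11* (1.28) and *spp-21* (1.17). Other *nuo-6* libraries that stood apart were replicate 1 for *unc-54* (5277, lowest), replicate 3 for *timm-23* (124, lowest), *daf-16* (324, highest) and *lin-65* (55.2, highest), and replicate 6 for *asp-18* (0.138), *clec-128* (0.138), *clec-18* (0.138), F35E8.6 (0.0459) and F35E8.7 (0.0917), all highest at a level of a few reads.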

How the results depend on the processing

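The counts of called genes moved by over 1.5 times under 4 settings. The 12 libraries fitted alone gave 1043 genes higher and 1677 lower in *daf-2* than in *nuo-6* worms, a log2 difference of at least 1 left 588 and 770, and a false discovery rate below 0.01 left 1098 higher. With the replicate number as a block, in a fit of the 12 libraries, 689 were higher and 1235 lower. The numbers did not pair the libraries, since same-numbered libraries correlated from -0.49 to 0.29 in their deviations from the group means and 0 of 6 *daf-2* libraries correlated best with their own number. edgeR gave 2114 and 2564, DESeq2 on the 12 libraries 1857 and 1921, median of ratios scaling 2061 and 2400, pseudocounts of 0.1 and 1 gave 1810 to 1903 and 2586 to 2592, and a mean of at least 1 gave 1863 and 2557. Leaving out each library in turn gave 1479 (without *nuo-6* replicate 1) to 2412 (without *daf-2* replicate 5) higher and 2364 to 2780 lower. Over all alternatives no called difference among the 165 named genes changed sign, while some small uncalled ones did, such as those of *daf-16* (0.15, but -0.09 without *daf-2* replicates 5 and 6 and *nuo-6* replicate 2) and *lin-65* (0.13, but -0.05), and 17 calls were lost in the 12 libraries alone, 29 with the block 2 under median of ratios scaling, 5 in edgeR (*col-36*, *cyp-13A8*, *gst-44*, *daf-28* and *sgk-1*, edgeR adjusted p = 0.0692 to 0.282) and 12 in DESeq2, which left *lipl-2* without an adjusted p.

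Limits are as follows. The depth leaves genes with under 3 reads in a group without a fold change. The authors' filter on genes is not stated, so genes absent from the table were not tested. Whether the counting used strand is not given in the sources used here, so the reads of overlapping genes cannot be told apart. The planned look at promoter motifs was not run, because it needs sequences that were not used here.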

Other observations

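Smaller groups outside the main text were as follows, beside 13.3% of all genes higher and 18.4% lower. Of 10 trehalose and glycerol genes 4 were higher and 3 lower in *daf-2* than in *nuo-6* worms (median 0.24), with the trehalase gene *tre-4* higher (0.60, limma adjusted p = 0.0025) and *tre-3* lower (-0.65, limma adjusted p = 0.0039), and the 12 libraries alone gave 1 higher and 0 lower. Without *nuo-6* replicate 4, 5 or 6, or *daf-2* replicate 4 or 6, 2 were higher, and without *nuo-6* replicate 1 or *daf-2* replicate 4, 1 was lower. Of 8 genes of the sterol hormone pathway 3 were higher and 1 lower (median 0.39), with *ncr-2*, a homologue of a lysosomal cholesterol transporter, higher (0.89, limma adjusted p = 0.00029) and the oxygenase gene *daf-36* lower (-0.66, limma adjusted p = 0.0026), and 1 was higher without *nuo-6* replicate 1, 4 or 5 or *daf-2* replicate 3, or in the 12 libraries alone, while 2 were lower without *daf-2* replicate 6. Of the 4 metallothionein and ferritin genes *mtl-1* and *ftn-1* were higher, while *mtl-2* measured 102 ± 70.2 in *daf-2* worms and 180 ± 107 in *nuo-6* worms (SD, n = 6 each, limma adjusted p = 0.10) and *ftn-2* differed by 0.08, with 1 lower without *nuo-6* replicate 2 or *daf-2* replicate 2.

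Of 20 muscle genes 7 were lower and none higher (median -0.27), with the troponin gene *tni-3* at 77.7 to 91.5 in *daf-2* worms, against 97.9 to 152 in *nuo-6* worms (-0.49, limma adjusted p = 0.0023), and the 12 libraries alone gave 3 lower. Of 26 autophagy genes 1 was higher and 2 lower (median -0.02), a count that ranged from 0 to 4 in each direction when single libraries were left out, the 12 libraries alone gave none, and without *daf-2* replicates 5 and 6 and *nuo-6* replicate 2, 6 were lower. Of 33 proteasome subunit genes 5 were higher (15.2%, near the 13.3% of all genes) and none lower (median 0.06). The number higher was 8 without *nuo-6* replicate 1 or *daf-2* replicate 5, 3 without *nuo-6* replicate 3 or *daf-2* replicate 1 or 4, and 0 in the 12 libraries alone. Without *nuo-6* replicate 3, 3 proteasome genes were lower.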
